A study of Rattus norvegicus with 138 samples.

Results

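In the gene tables, 4 rows carry no ordinary gene name, and their counts looked switched on in one strain of rat and off in the other. These rows, 4 of 32883 in all, are AABR07064061.1 (ENSRNOG00000045967), AABR07052523.1 (ENSRNOG00000028543), AABR07000733.1 (ENSRNOG00000058047) and LOC103692716 (ENSRNOG00000007219), each found once by its symbol. They were chosen by near on/off counts in these same libraries, so the strain contrast of each row, and the zeros of LOC103692716 in some WKY libraries, are described below without a test. Tests of a row are kept for differences within a strain in which its mean was at least 10 counts per library. Region effects are also compared between strains where both reach that mean. For AABR07052523.1 this takes in SHRs, where its level was low, and LOC103692716 is tested in SHRs only. RNA was sequenced from 3 brainstem regions, the nucleus tractus solitarius (NTS), the caudal ventrolateral medulla (CVLM) and the rostral ventrolateral medulla (RVLM) of female spontaneously hypertensive rats (SHR/NHsd, SHRs) and female Wistar-Kyoto rats (WKY/NHsd), which served as the normotensive control. Neither strain received a treatment, and the punches from the left and right side of a region were pooled into 1 library per rat. There were 5 WKY rats and 5 SHRs at 8 wk of age, 4 and 5 at 10 wk, and 3 and 6 at each of 12, 16 and 24 wk, which gave 46 rats with 3 libraries each. Both strains are inbred, so any locus that is fixed differently in them separates all rats of one from all rats of the other, and the strain cannot be told apart from any single locus.

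Names that begin with AABR07 come from contigs of a rat genome assembly, and a LOC number marks a locus that had no symbol yet. Such rows include unplaced genes, long noncoding RNAs and pseudogenes, which are copies of a gene, often made from its processed messenger RNA, that no longer encode its protein. A pseudogene and its parent gene share sequence, so a read can fit both, and the program RSEM then divides the read between them, which leaves counts that are not whole. Counts in the tables also rest on the reference genome, which comes from another strain, the Brown Norway rat. In the RefSeq gene table for GRCr8, 1 of the 4 rows was found. AABR07052523.1 stands there as a synonym of Eno1-ps1, a pseudogene of Eno1, which encodes enolase 1, an enzyme of glycolysis. For the other 3 rows no function is given here. In the same table the 3 genes on each side of Eno1-ps1 are LOC134486381, LOC134486382 and LOC120101566 on one side and LOC120101442, LOC120101567 and LOC102555817 on the other, and none of these names is in the count tables.

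Each library held 5904581 to 17889417 counts (median 10143036), which sets the limit on how small a level can be seen. The name of every library ends in a 1 or a 2, whose meaning is not stated. Libraries that end in 2 were deeper, with 9489481 to 17889417 counts against 5904581 to 11920643 in those that end in 1. All rats of 10 wk end in 2, as do 3 of the 5 WKY rats of 8 wk, 1 SHR of 12 wk and 1 SHR of 24 wk, and the number was the same in all 3 regions of a rat. Within an age, both numbers thus occur only at 8 wk in WKY rats and at 12 and 24 wk in SHRs. Any effect of the number taken within an age rests on the rats of those ages, with 1 SHR that ends in 2 at each. Of the markers checked, Th, the rate-limiting enzyme of catecholamine synthesis, had a median of 147, 133 and 49.1 CPM, counts scaled to library size, in the NTS, CVLM and RVLM. Neurod6, a gene of forebrain neurons, had 4.31, 26.7 and 2.34 CPM.

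AABR07064061.1, AABR07052523.1 and AABR07000733.1 did not overlap between the strains in any region, and LOC103692716 did. Nor did the first 3 overlap over all libraries together. Among all 14043 genes tested in at least 1 region, 0.199% were separated in this way with the higher level in SHRs and 0.142% with the higher level in WKY rats. Since the rows were picked for this contrast, these shares are given for scale only. Among the 13116 genes tested in all regions, 0.473% differed between the strains by 2-fold or more, with the adjusted p not over 0.01, in all 15 comparisons of region and age. By name these were 7 of 385 rows with a contig name (1.82%), of which 3 are rows described here, 7 of 422 with a LOC number (1.66%) and 48 of 12309 with other names (0.39%).

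**Figure D1:**
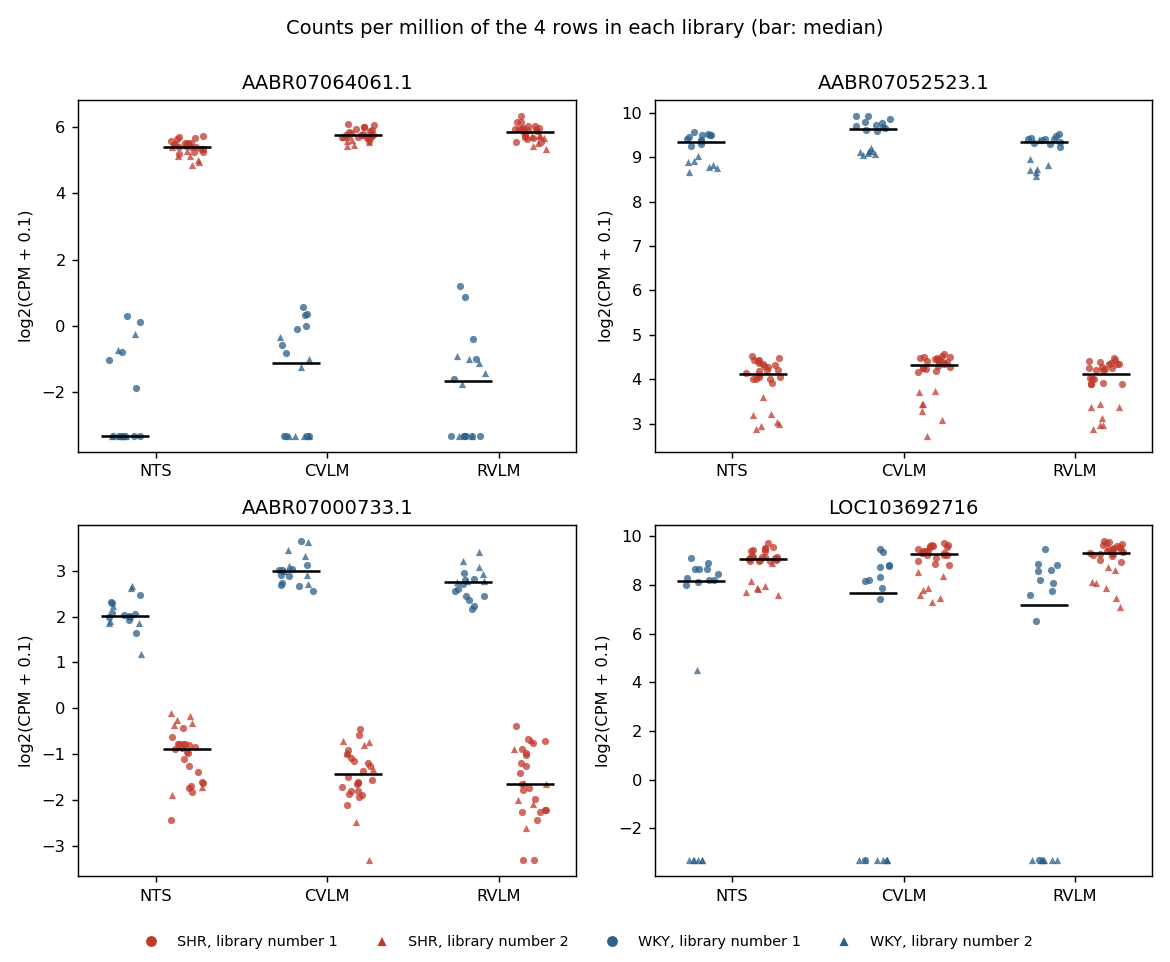
Level of each of the 4 rows on the log2(CPM + 0.1) scale in 46 libraries per region, by strain (red SHRs, blue WKY rats) and by the number that ends the library name (circle 1, triangle 2), with the median as a bar. The strains do not overlap in 3 panels, and in the panel of LOC103692716 a string of WKY libraries, nearly all of them triangles, lies at the bottom while the others approach the SHRs.

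AABR07064061.1 was on in SHRs and at or near 0 in WKY rats. In SHRs its expected counts per library ran from 274 to 622 in the NTS (median 458), from 323 to 821 in the CVLM (median 563) and from 312 to 809 in the RVLM (median 622). In WKY rats the highest count in any library was 18.4 and the median over the 54 libraries was 1.14, with 24 libraries at 0. All 28 SHRs were above all 18 WKY rats in each region, as for 0.356%, 0.413% and 0.356% of genes in the NTS, CVLM and RVLM. Scaled to depth, the SHRs had 42.0 ± 6.24 CPM for the NTS, 54.6 ± 6.55 for the CVLM and 57.4 ± 9.14 for the RVLM (mean ± SD, n = 28), and WKY rats 0.245 ± 0.375, 0.437 ± 0.483 and 0.382 ± 0.616 CPM (n = 18). The WKY mean was thus 0.582%, 0.801% and 0.665% of that in SHRs. For the gap between strains, CPM were taken from total counts without TMM, with 0.1 added. On that scale the lowest SHR library lay 3.94 log2 units above the highest WKY library. This was the widest such gap of any gene with the higher level in SHRs. The fitted log2 fold change, SHR over WKY, was 7.43 ± 0.28 (SE) for the NTS, 7.01 ± 0.25 for the CVLM and 7.64 ± 0.22 for the RVLM as the mean of the ages, and these sizes depend on how counts near 0 are treated.

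Within SHRs, AABR07064061.1 was lower in the NTS than in either ventrolateral region. The CVLM exceeded the NTS by a log2 fold change of 0.39 ± 0.11 (SE; edgeR quasi-likelihood test with the rat as a block, Benjamini-Hochberg adjusted p = 0.0011), and the RVLM exceeded it by 0.45 ± 0.11 (adjusted p = 0.000121). The RVLM and the CVLM differed by 0.06 ± 0.11 (adjusted p = 0.671). Differences between regions were common among all genes in SHRs, with 55.9% called for the CVLM against the NTS and 64.4% for the RVLM against the NTS, so a regional difference of this kind does not set the row apart. The mix of cells differs between the punches too. Mbp, the myelin basic protein of oligodendrocytes, had a median of 16522 CPM for the NTS, 30515 for the CVLM and 24546 for the RVLM, and the part of this in any region difference was not tested. In bulk tissue, fewer cells of a type and less RNA per cell cannot be told apart.

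With both strains in the fit, no age difference of AABR07064061.1 passed the test in SHRs. Means by age in the NTS were lowest at 10 wk, with 34.3 ± 4.98 CPM (SD, n = 5), and highest at 8 wk, with 47.6 ± 4.77 (n = 5). Tests over the 5 ages gave adjusted p values of 0.842, 0.898 and 0.742 in the NTS, CVLM and RVLM, and 24 wk against 8 wk gave log2 fold changes of -0.15 ± 0.31, 0.10 ± 0.29 and -0.23 ± 0.25. The number that ends the library name had a fitted log2 effect of -0.29 ± 0.39, -0.20 ± 0.34 and -0.33 ± 0.31 in SHRs (adjusted p = 0.691, 0.765 and 0.516). These fits share their spread with the WKY libraries, whose counts near 0 scatter widely on the log scale. With SHR libraries alone in the fit, an alternative chosen after the data were seen, the test over the 5 ages passed in the NTS (edgeR, adjusted p = 0.0379, as did 19.9% of genes) and not in the CVLM or RVLM (adjusted p = 0.102 and 0.131, with 19.9% and 13.8% of genes called). With the number as a further term it passed in none (adjusted p = 0.878, 0.835 and 0.806, with 0.377%, 0.641% and 0.201% of genes called), and the effect of the number was -0.28 ± 0.13, -0.19 ± 0.11 and -0.29 ± 0.14 (adjusted p = 0.176, 0.3 and 0.184). In WKY rats the counts were under the 10 per library set for such a test.

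Rats with a high level in one region tended to have a high level in another. After the age means were removed, the log2 levels of AABR07064061.1 in the NTS and RVLM of the 28 SHRs correlated with r = 0.686 and rho = 0.640 (permutation test, adjusted p = 0.00018 and 0.0024 over 12 relations), and without the 2 rats farthest from the NTS median r was 0.541. Within the 21 SHRs whose number is 1, r was 0.613 (permutation test, adjusted p = 0.0365). For the NTS and CVLM r was 0.462 and rho 0.413 (permutation test, adjusted p = 0.0225 and 0.0592), and r was 0.347 without 2 rats and 0.327 within number 1 (permutation test, adjusted p = 0.436). For the CVLM and RVLM r was 0.281 and rho 0.223 (permutation test, adjusted p = 0.177 and 0.267). The same 28 rats and their libraries' depth stand behind all these points.

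AABR07052523.1, the pseudogene of Eno1, was the mirror case. In WKY rats its expected counts ran from 5526 to 8511 in the NTS (median 6978), from 5812 to 9361 in the CVLM (median 7869) and from 4772 to 7147 in the RVLM (median 6107). In SHRs they ran from 107 to 254 in the NTS (median 165), from 87.3 to 259 in the CVLM (median 184) and from 106 to 246 in the RVLM (median 159). No SHR reached any WKY rat of the same region, as for 0.385%, 0.342% and 0.313% of genes in the NTS, CVLM and RVLM, yet no SHR library was at 0. Means were 602 ± 125 CPM for the NTS, 744 ± 164 for the CVLM and 589 ± 121 for the RVLM of WKY rats (SD, n = 18), and 16.2 ± 4.92, 18.2 ± 4.96 and 16.0 ± 4.72 CPM in SHRs (n = 28). On CPM from total counts with 0.1 added, the lowest WKY library lay 3.95 log2 units above the highest SHR library. This was the widest such gap of any gene with the higher level in WKY rats. The log2 fold change, SHR over WKY, was -5.30 ± 0.09 for the NTS, -5.45 ± 0.07 for the CVLM and -5.28 ± 0.09 for the RVLM, and over single ages and regions it ran from -5.81 to -4.80.

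The parent gene went the other way, by far less. Eno1 counts ran from 12081 to 32975 per library in SHRs (median 22974) and from 7562 to 17594 in WKY rats (median 12636). Its level was higher in SHRs by a log2 fold change of 0.90 ± 0.06 (SE) for the NTS, 0.85 ± 0.05 for the CVLM and 0.98 ± 0.06 for the RVLM. Eno1 did not choose the rows, but it can share reads with AABR07052523.1. Its strain difference is therefore not separate from the contrast that chose that row, and is given without a test.

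The pseudogene's share of the summed count was 33.9% to 38.7% in the 54 WKY libraries (mean 36.1% ± 0.931, SD) and 0.402% to 1.06% in the 84 SHR libraries (mean 0.739% ± 0.126). By region the WKY means were 35.7% ± 0.973, 36.1% ± 0.734 and 36.3% ± 1.01 in the NTS, CVLM and RVLM, apart by less than 1 SD. By library number they were 36.1% ± 0.788 (1) and 36.0% ± 1.13 (2). In SHRs the share was 0.792% ± 0.0872 in libraries that end in 1 and 0.580% ± 0.0863 in those that end in 2. The values were not whole, by more than 0.005, in 137 libraries for AABR07052523.1 (all but 1) and in every library for Eno1, whereas 86.4% of the 13512 genes with a mean of at least 10 counts were whole in every library.

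When the counts of both rows were added into one, the difference between strains was smaller than that of Eno1 alone. The sum holds the counts that chose AABR07052523.1 and is given without a test. Its log2 fold change, SHR over WKY, was 0.28 ± 0.06, 0.21 ± 0.05 and 0.34 ± 0.06 (SE) in the NTS, CVLM and RVLM. At 8 wk it was 0.64 ± 0.12, 0.59 ± 0.10 and 0.62 ± 0.12, and at the other ages it ran from -0.01 ± 0.11 (CVLM, 24 wk) to 0.35 ± 0.14 (RVLM, 16 wk). At 8 wk the 5 SHRs all end in 1 and 3 of the 5 WKY rats end in 2. The level of Eno1 itself was lower with the number 2 in all but the RVLM of WKY rats, where it did not pass, with a log2 effect of -0.48 ± 0.11, -0.36 ± 0.09 and -0.55 ± 0.12 in SHRs (adjusted p = 0.00428, 0.0117 and 0.00339 in the NTS, CVLM and RVLM) and -0.60 ± 0.12, -0.57 ± 0.10 and -0.44 ± 0.13 in WKY rats (adjusted p = 0.00246, 0.000585 and 0.0674). The part of the number in the 8 wk difference was not tested.

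**Figure D2:**
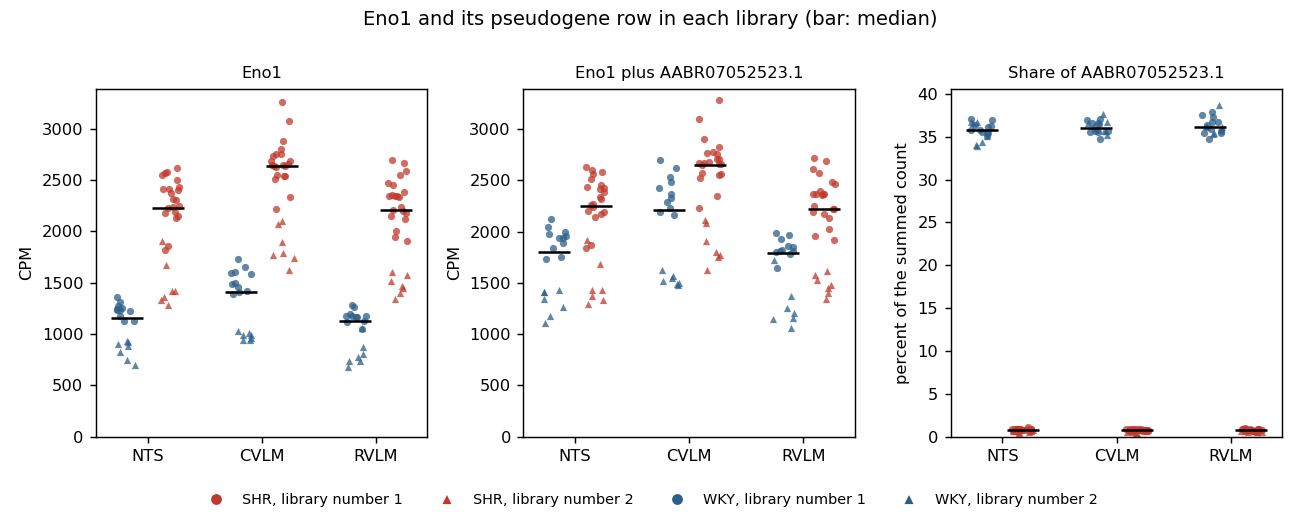
Eno1 (left, CPM), Eno1 and AABR07052523.1 added together (middle, CPM) and the pseudogene's percent of the summed count (right) in each library by region, strain and library number, with the median as a bar. The gap between strains is wide for Eno1 and narrow for the sum, and the share lies between 33.9% and 38.7% in WKY rats and at or under 1.06% in SHRs.

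Between regions the row and its parent had differences of the same sign wherever the row's test passed. Both can share reads, which RSEM divides between them, so their region differences are not separate from each other. AABR07052523.1 was higher in the CVLM than in the NTS by a log2 fold change of 0.30 ± 0.05 in WKY rats and 0.17 ± 0.04 in SHRs (edgeR with the rat as a block, adjusted p = 9.41e-08 and 0.000403), and the RVLM was below the CVLM by -0.33 ± 0.05 and -0.18 ± 0.04 (adjusted p = 6.97e-09 and 0.000239). Eno1 had 0.27 ± 0.04 and 0.24 ± 0.03 for the first of these contrasts and -0.34 ± 0.04 and -0.24 ± 0.03 for the second, in WKY rats and SHRs. The share of genes called was 52.5% (CVLM and NTS) and 41.1% (RVLM and CVLM) in WKY rats and 55.9% and 44.3% in SHRs. The RVLM and NTS differed by -0.03 ± 0.05 in WKY rats and -0.01 ± 0.04 in SHRs (adjusted p = 0.573 and 0.843), while 64.2% and 64.4% of genes were called. The 3 region effects of the pseudogene did not pass a test of the difference between the strains, with the difference at -0.13 ± 0.06, 0.15 ± 0.06 and 0.02 ± 0.06 for CVLM over NTS, RVLM over CVLM and RVLM over NTS (adjusted p = 0.784, 0.56 and 0.923, with 0.328%, 0.385% and 1.93% of genes called).

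Differences with age in AABR07052523.1 went together with the library number. The row can share reads with Eno1 in both strains, and the part of such reads in these differences was not tested. In SHRs the test over the 5 ages passed in the NTS, CVLM and RVLM (adjusted p = 0.00163, 1.82e-05 and 0.000716, as did 18.7%, 20% and 14.1% of genes), and in WKY rats it passed in the CVLM (adjusted p = 0.00148, 22.2% of genes) and not in the NTS or RVLM (adjusted p = 0.0825 and 0.0696, 12.5% and 6.79% of genes). The lowest age was 10 wk, where every library ends in 2. There SHRs had 8.77 ± 1.93, 9.70 ± 2.50 and 8.94 ± 1.53 CPM (SD, n = 5) against 19.9 ± 2.39, 22.1 ± 1.17 and 19.5 ± 2.27 at 8 wk. Over all ages, the 63 SHR libraries that end in 1 ran from 14.7 to 23.6 CPM and the 21 that end in 2 from 6.52 to 13.2, without overlap. These 21 libraries come from 7 rats, 5 of which are all the SHRs of 10 wk, so the number goes largely with that age here. How many of all genes separate in this way was not counted. Within an age, SHRs hold both numbers only at 12 and 24 wk, with 1 rat that ends in 2 at each. WKY rats hold both only at 8 wk. The fitted effect of the number, taken within an age, was -1.11 ± 0.15, -0.78 ± 0.13 and -0.95 ± 0.17 in SHRs (adjusted p = 3.64e-05, 0.000417 and 0.000551, as did 10.3%, 6.08% and 10.5% of genes in the NTS, CVLM and RVLM). In WKY rats it was -0.54 ± 0.15 and -0.52 ± 0.13 in the NTS and CVLM (adjusted p = 0.0187 and 0.0127, 8.8% and 5.56% of genes) and -0.37 ± 0.17 in the RVLM (adjusted p = 0.281, 1.64% of genes). With the number as a term, no age test of this row passed (adjusted p = 0.92, 0.403 and 0.878 in SHRs and 0.731 in the CVLM of WKY rats). In the CVLM of WKY rats, 24 wk exceeded 8 wk by 0.55 ± 0.16 (adjusted p = 0.0181, 13.7% of genes), which was 0.18 ± 0.12 with the term (adjusted p = 0.461).

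Rats also agreed across regions in AABR07052523.1. In the 18 WKY rats, r was 0.832 and rho 0.699 between the NTS and CVLM (permutation test, adjusted p = 0.00052 and 0.00736) and 0.673 and 0.542 between the CVLM and RVLM (permutation test, adjusted p = 0.00598 and 0.0592). Without the 2 rats farthest from the median these r were 0.768 and 0.531. For the NTS and RVLM r was 0.369 and rho 0.461 (permutation test, adjusted p = 0.174 and 0.0922), but 0.732 without 2 rats. Within the 11 WKY rats that end in 1, r was 0.506, 0.210 and 0.432 in the same order, and none passed (permutation test, adjusted p = 0.436, 0.605 and 0.436).

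One other row traced AABR07052523.1 closely. By the root-mean-square (RMS) difference of the 30 centred group means of log2 CPM, the nearest genes were RGD1563294 (0.156), Hba-a3, a hemoglobin alpha chain (0.756), and LOC100909441 (0.871), where the row's own RMS deviation was 2.70. RGD1563294 had 1499 to 4724 counts per library in WKY rats (median 2840) and 24.1 to 106 in SHRs (median 69.7). Its count was 0.407 ± 0.0525 of that of AABR07052523.1 in the 54 WKY libraries and 0.403 ± 0.0805 in the 84 SHR libraries (SD), and the means of the strains lay closer than this spread. RGD1563294 was picked for its likeness over group means of both strains, so a like ratio in both follows largely from the pick. Its counts were not whole in 136 libraries, which is all but 2. The only other row from the contig of AABR07052523.1, AABR07052523.2, had at most 1 count and was above 0 in 2 libraries.

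AABR07000733.1 was a weaker switch of the same direction, with the higher level in WKY rats. Expected counts there ran from 23 to 78 per library in the NTS (median 48) and from 41 to 128 in the RVLM (median 60), and in the CVLM the lowest was 55 and the median 77.4. In SHRs they ran from 1 to 14 (median 4), 0 to 8 (median 2.51) and 0 to 7 (median 2.51), with 3 of 84 libraries at 0. The strains did not overlap once scaled to depth. WKY rats had 4.19 ± 1.02, 8.22 ± 1.98 and 6.66 ± 1.58 CPM in the NTS, CVLM and RVLM (SD, n = 18) and SHRs 0.427 ± 0.203, 0.297 ± 0.152 and 0.264 ± 0.179 (n = 28). On CPM from total counts with 0.1 added, the lowest WKY library lay 1.24 log2 units above the highest SHR library over all regions. This gap had rank 6 among genes with the higher level in WKY rats. The log2 fold change, SHR over WKY, was -3.25 ± 0.16 for the NTS, -4.74 ± 0.15 for the CVLM and -4.56 ± 0.18 for the RVLM.

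In WKY rats its level was lowest in the NTS. The CVLM exceeded the NTS by a log2 fold change of 0.97 ± 0.14, or 1.96-fold (edgeR with the rat as a block, adjusted p = 2.18e-09, with 52.5% of genes called). The RVLM exceeded the NTS by 0.67 ± 0.14 (adjusted p = 1.24e-05, with 64.2% of genes called). Such calls were common among all genes in WKY rats. The RVLM was below the CVLM by -0.30 ± 0.13, which did not pass (adjusted p = 0.0658), though it did with WKY libraries alone in the fit, at -0.32 ± 0.10 (adjusted p = 0.00745, 37.1% of genes). The lowest CVLM library of WKY rats, at 5.77 CPM, lay below the highest NTS library, at 6.27 CPM. In SHRs the mean count was under 10 per library, and no test is given there. Age was not detectable in WKY rats (tests over the 5 ages, adjusted p = 0.526, 0.717 and 0.879 in the NTS, CVLM and RVLM). Neither was the library number, with effects of 0.21 ± 0.40, 0.61 ± 0.35 and 0.89 ± 0.43 (adjusted p = 0.789, 0.317 and 0.302).

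At these counts, rats could hardly be ranked by AABR07000733.1. Between regions of the 18 WKY rats, r was 0.197 (NTS and CVLM), 0.223 (NTS and RVLM) and 0.461 (CVLM and RVLM), with rho at 0.276, 0.393 and 0.525, and none passed (permutation test, adjusted p = 0.434, 0.41 and 0.0806 for r, and 0.267, 0.145 and 0.0592 for rho). Unlike the other rows, its counts were nearly all whole, with 8 libraries in all off by more than 0.005. The genes nearest to it in pattern were 3 more contig rows, AABR07057196.1 (RMS difference 0.508), AABR07011698.1 (0.51) and AABR07044383.1 (0.534), against the row's own RMS deviation of 1.87. AABR07057196.1 had a median of 14.3 CPM in WKY rats against 0.251 to 3.01 CPM in SHRs, and it was not whole in 134 libraries.

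**Figure D3:**
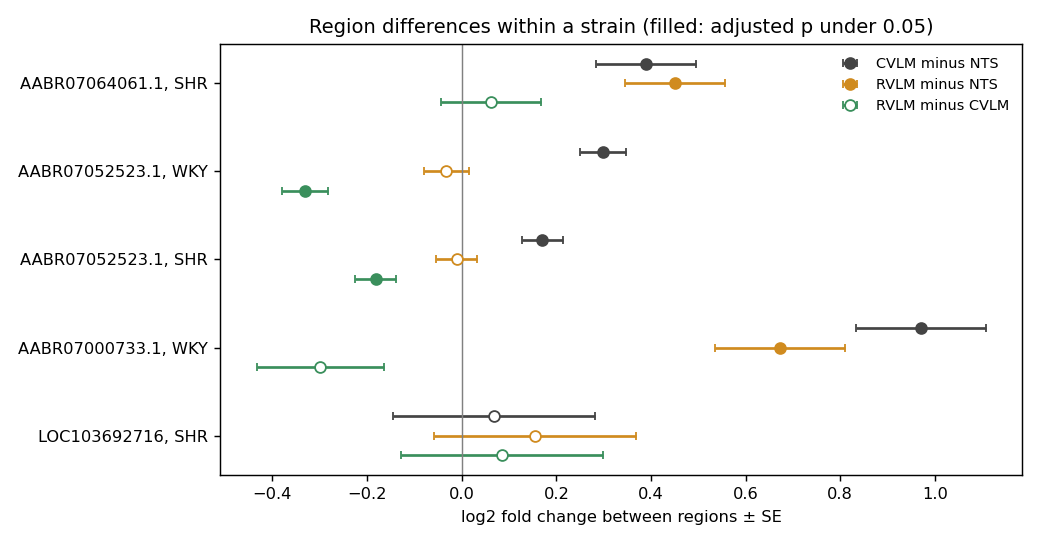
Log2 fold change between regions (points) with its SE (bars) for each row in each strain where its mean was at least 10 counts per library, filled where the adjusted p was under 0.05. AABR07064061.1 and AABR07000733.1 are lowest in the NTS, AABR07052523.1 is highest in the CVLM in both strains, and LOC103692716, shown in SHRs only, has the widest bars and no filled point.

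LOC103692716 went against the label of a strain switch. SHRs had 2029 to 9109 expected counts in all 84 libraries (median 5774), and in WKY rats the row was at 0 in 22 of 54 libraries and reached 6641 counts in others. WKY and SHR libraries overlapped in each region. In the NTS 11 of 18 WKY libraries, in the CVLM 10 and in the RVLM 9 were at or above the lowest SHR library.

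The zeros lined up with the number that ends the library name. Of the 21 WKY libraries that end in 2, 20 were at 0, and the other one, the NTS of replicate 5 at 8 wk, had 242 counts. Of the 33 that end in 1, 2 were at 0, the CVLM and the RVLM of replicate 1 at 12 wk, whose NTS library held 3395 counts. The other WKY libraries that end in 1 ran up to 557 CPM for the NTS, 706 for the CVLM and 719 for the RVLM. By rat, 6 of 18 WKY rats were at 0 in all 3 regions, 2 in only 2 of their 3 regions, and 10 in none. In this row, then, libraries of the same rat could differ between 0 and 3395 counts.

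SHRs leaned the same way without reaching 0. The 63 SHR libraries that end in 1 ran from 448 to 895 CPM (median 651) and the 21 that end in 2 from 139 to 476 (median 237). At 12 wk the only SHR that ends in 2 had 211, 194 and 139 CPM in the NTS, CVLM and RVLM, against 506 to 745, 500 to 708 and 606 to 734 in the other 5. At 24 wk the only such SHR had 283, 238 and 390 CPM, against 538 to 675, 448 to 838 and 592 to 750. It was thus the lowest of its age in every region. The fitted effect of the number was -1.27 ± 0.63, -1.52 ± 0.74 and -1.39 ± 0.73 in SHRs, which did not pass where both strains shared the spread (edgeR, adjusted p = 0.2, 0.217 and 0.211). With SHR libraries alone in the fit it was -1.26 ± 0.24, -1.52 ± 0.26 and -1.36 ± 0.27 and passed (adjusted p = 0.00247, 0.00262 and 0.00364, as did 9.64%, 6.53% and 11.8% of genes).

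**Figure D4:**
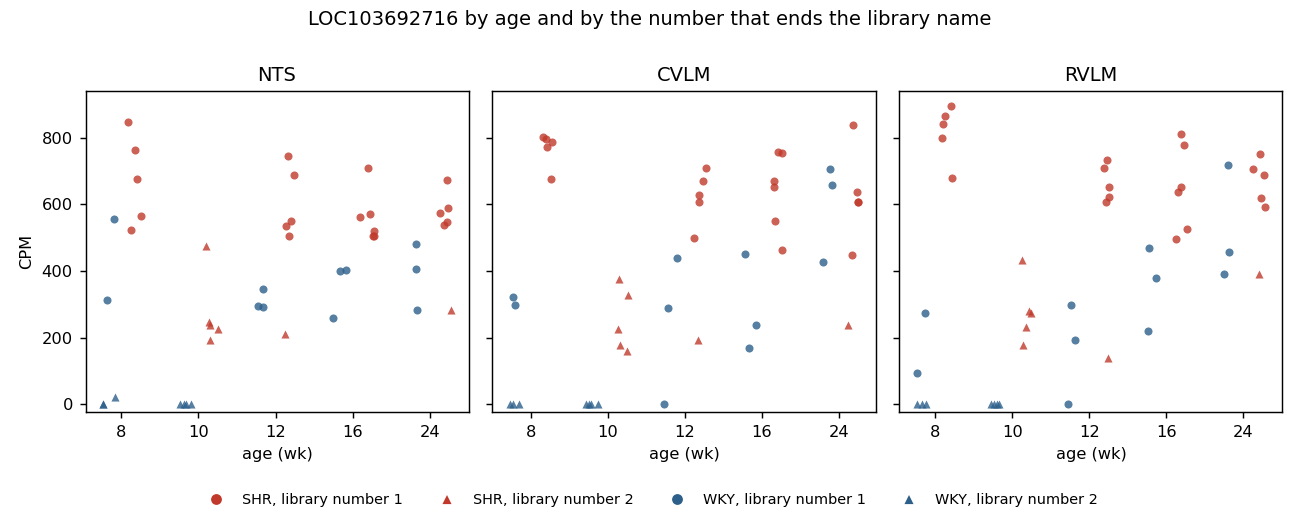
CPM of LOC103692716 in each library by age, with 1 panel per region, red for SHRs, blue for WKY rats, circles for libraries that end in 1 and triangles for those that end in 2. Blue triangles sit at or near 0 at 8 and 10 wk, red triangles lie below the red circles at 12 and 24 wk, and 1 blue circle at 12 wk is at 0 in the CVLM and in the RVLM.

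Strain differences of LOC103692716 varied with age, and are described without a test. At 10 wk, where every library ends in 2, all 4 WKY rats were at 0 in each region and all 5 SHRs were at 276 ± 114, 252 ± 94.5 and 280 ± 94.7 CPM (SD) in the NTS, CVLM and RVLM. Set against a floor of 3 counts per WKY library, the SHR means were 1444-fold, 1246-fold and 1342-fold higher. The row's counts were not whole in 82 of 84 SHR libraries, so RSEM can divide its reads with other rows. A 0 then sets no lower limit on the fold, and the part of such reads was not tested. The number and the age cannot be told apart at 10 wk. At 8 wk, log2 fold changes were 1.92 ± 0.79, 2.63 ± 1.01 and 3.47 ± 1.01 in the same order. At 12, 16 and 24 wk, where all WKY rats end in 1, log2 fold changes ran from -0.12 ± 1.06 (CVLM, 24 wk) to 1.81 ± 1.12 (RVLM, 12 wk). Libraries that end in 1 alone, chosen after the data were seen, hold no rats of 10 wk. Over them the mean log2 fold change over 8, 12, 16 and 24 wk was 0.70 ± 0.10 for the NTS, 0.98 ± 0.36 for the CVLM and 1.35 ± 0.35 for the RVLM. With all libraries the mean was 3.70, 3.85 and 4.19, but over all ages. That mean includes 10 wk, where the fit gave 14.7, 14.4 and 14.6 with all WKY libraries at 0. The 2 means thus cover unlike sets of ages.

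Regions and ages of LOC103692716 were tested in SHRs, where no library was at 0. The 3 region differences were 0.07 ± 0.21, 0.15 ± 0.21 and 0.09 ± 0.21 for CVLM over NTS, RVLM over NTS and RVLM over CVLM (edgeR, adjusted p = 0.805, 0.54 and 0.783). The test over the 5 ages did not pass with both strains in the fit (adjusted p = 0.725, 0.706 and 0.728 in the NTS, CVLM and RVLM). It passed with SHR libraries alone in the fit (adjusted p = 0.0131, 0.0067 and 0.00968, as did 19.9%, 19.9% and 13.8% of genes), and with the number as a further term it did not (adjusted p = 0.904, 0.835 and 0.847). In WKY rats the means were 225 ± 196, 222 ± 241 and 194 ± 220 CPM (SD, n = 18) in the NTS, CVLM and RVLM, and differed by less than their spread.

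Across SHRs the level of the row in one region was related to that in another with both numbers pooled. Over 28 SHRs r was 0.550, 0.799 and 0.674 for NTS and CVLM, NTS and RVLM, and CVLM and RVLM (permutation test, adjusted p = 0.00788, 0.00018 and 0.00156), and rho was 0.249, 0.634 and 0.360 (permutation test, adjusted p = 0.24, 0.0024 and 0.0922). Without the 2 rats farthest from the median r was -0.016, 0.560 and 0.233, so the relations of the CVLM with the NTS and with the RVLM rest on those rats. Within the 21 SHRs that end in 1 r was 0.273, 0.137 and 0.218 (permutation test, adjusted p = 0.464, 0.605 and 0.517).

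Genes nearest in pattern to LOC103692716 were far from it. The nearest were Tmem94 (RMS difference 2.59), RGD1561667 (2.73) and MGC109340 (2.75), at distances not far below the row's own RMS deviation of 3.78. For AABR07064061.1 they were Ifit1, an interferon-induced gene (0.811), Lilrb3a, an immunoglobulin-like receptor of leukocytes (1.07), and Spock2, which encodes a proteoglycan of the extracellular matrix (1.39), against its own 3.54. Ifit1 had 2.94 to 31.2 CPM in SHRs (median 14.3) and at most 0.298 in WKY rats. Spock2 had 143 to 329 CPM in SHRs and 5.53 to 18.5 in WKY rats, and its counts were whole in every library.

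Values that are not whole, which RSEM gives where a read fits more than 1 row, were common among the 4. Counts were not whole in all 84 SHR libraries for AABR07064061.1 and in 82 of 84 for LOC103692716. Which rows shared reads with AABR07064061.1 and LOC103692716 was not tested.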

How the data were processed

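The authors mapped paired-end reads to the rat genome rn6 with STAR within RSEM and deposited, per region, expected counts per gene and library without normalization. Their methods name an adjustment for batch effects, and whether the tables hold it is not stated. Depth and the 46 libraries per region limit the precision. All value columns were used. The age of 2 CVLM libraries differs between title and label, and the title was followed. Rats are biological replicates.

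Counts were rounded. Genes whose largest rlog value (DESeq2 1.42.0) in a region reached 3.5 were kept, as in the study's methods, which left 13793, 13408 and 13411 genes in the NTS, CVLM and RVLM, with all 4 rows among them. Models were fitted with edgeR 4.0.16 in R 4.3.3 (TMM, glmQLFit, glmQLFTest), with 1 fit of strain and age per region, and 1 fit over all libraries with the rat as a block for regions. A test is given where a row's mean was at least 10 counts in that strain, at an adjusted p under 0.05, with p values adjusted by Benjamini and Hochberg over all genes of a contrast. CPM use TMM. The SE of a log2 fold change is its absolute value divided by the square root of the F statistic of its test. Where a group is at or near 0, this SE does not hold the full uncertainty of the fold change. Gaps between the strains and the shares of genes without overlap use CPM from total counts instead. Correlations used 100000 permutations (SciPy 1.17.1). Scripts were tested on simulated counts. Alternatives were DESeq2, limma 3.58.1, other filters and left-out libraries. The rows and gene lists were chosen with earlier results of these data known. Other genes are named as the parent, contig mates, neighbours or markers, or as the 3 with the smallest RMS difference of group means from each row. No sequence of the rows was at hand. Values of some marker genes are not reported here.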

Additional observations from a re-analysis of the deposited data

Results flagged for a closer look

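Of 81 groups of 4 to 6 libraries screened for a library that stands apart from the rest (Dixon's ratio), 11 held one, where chance gives about 1 group in 20. Values are CPM.

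LOC103692716 gave 5 of these. In the NTS it was 476 in SHR replicate 1 of 10 wk (others 194 to 246), 709 in SHR replicate 4 of 16 wk (others 505 to 570) and 283 in SHR replicate 6 of 24 wk (others 538 to 675). In the CVLM it was 676 in SHR replicate 5 of 8 wk (others 772 to 802), and in the RVLM 139 in SHR replicate 6 of 12 wk (others 606 to 734). The replicates 6 named here are the only SHRs of their age that end in 2.

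AABR07052523.1 was 10.8 in the CVLM of SHR replicate 6 of 24 wk (others 19.0 to 22.7), a library that ends in 2. AABR07000733.1 was 0.735 in the NTS of SHR replicate 6 of 12 wk, a count of 11 (others 0.406 to 0.483), and 8.32 in the RVLM of WKY replicate 1 of 10 wk (others 6.66 to 6.72).

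AABR07064061.1 was 63.8 in the CVLM of SHR replicate 3 of 16 wk (others 51.5 to 54.7). In the NTS of WKY rats it was 0.749 in replicate 5 of 8 wk and 0.496 in replicate 1 of 10 wk, with the other libraries of each group at 0. These 2 values are counts of 7.66 and 6.74. The NTS library of WKY replicate 5 at 8 wk was also the only WKY library ending in 2 in which LOC103692716 was above 0.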

How the results depend on the processing

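Of 723 alternative values computed, 662 counted as unchanged. The other 61 changed sign, crossed the threshold or moved in size. Those that moved in size were 12 strain differences, which kept their sign, and 3 shares of values that are not whole. The values that changed are given here, and the cause was not tested unless the alternative itself left out libraries. The strain difference of AABR07064061.1 rests on WKY counts near 0. It ran from 6.96 to 8.48 (NTS), 6.85 to 7.89 (CVLM) and 7.46 to 8.46 (RVLM) with 1 replicate number left out, and was 8.59 in the RVLM over libraries that end in 1. That of LOC103692716 was 6.50, 6.78 and 7.12 in the NTS, CVLM and RVLM with DESeq2, and 0.70, 0.98 and 1.35 over libraries that end in 1. Means over libraries that end in 1 leave out the 10 wk age, which holds none. That of AABR07052523.1 turned to 0.28, 0.21 and 0.34 when its counts were summed with those of Eno1.

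Between regions, the RVLM and CVLM difference of AABR07000733.1 in WKY rats passed with DESeq2 (-0.31), limma voom (-0.29), libraries that end in 1 (-0.40) and WKY libraries alone (-0.32), and ran from -0.36 to -0.23 with 1 replicate number left out.

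For the test over the 5 ages, values are adjusted p. In AABR07052523.1 of SHRs they were 0.92, 0.403 and 0.878 (NTS, CVLM, RVLM) with the number as a term, 0.936, 0.909 and 0.869 over libraries that end in 1, and 0.966, 0.824 and 0.937 with SHRs alone and the number as a term. In its CVLM of WKY rats these were 0.731, 0.604 and 0.754, and left-out fits ran from 5.92e-05 to 0.0736. They ran from 0.00534 to 0.349 in the NTS and 0.0119 to 0.345 in the RVLM of WKY rats. Its 24 wk and 8 wk difference in the CVLM of WKY rats was 0.18 with the number as a term, 0.26 over libraries that end in 1, 0.50 without the 2 libraries of conflicting age and 0.19 with WKY rats alone and the number as a term, and ran from 0.47 to 0.66 in left-out fits. In AABR07064061.1 of SHRs the NTS passed with SHRs alone (0.0379). In LOC103692716 SHRs alone gave 0.0131, 0.0067 and 0.00968. The effect of the number in LOC103692716 was -1.26, -1.52 and -1.36 with SHRs alone, which passed. Tests of this row that use WKY libraries are not given, since they rest on the zeros for which it was chosen.

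Over rats that end in 1, r did not pass for AABR07064061.1 in the NTS and CVLM (0.327), for AABR07052523.1 in the NTS and CVLM (0.506) and the CVLM and RVLM (0.210), or for LOC103692716 (0.273, 0.137 and 0.218). With total counts and 0.5 added, r of AABR07052523.1 in the NTS and RVLM was 0.763 and passed.

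Replicate numbers are shared by the strains, and over 54 pairs the deviations of same-numbered libraries correlated with r from -0.33 to 0.55, above 0.1 in 32. Every pair was above 0.1 in 4 of 15 groups of region and age and in 0 of 3 regions, and the numbers were not taken to pair the rats. With the replicate block the ages of AABR07052523.1 in the NTS of WKY rats passed (adjusted p = 0.0478), and no other call changed. Without the rat block, the CVLM and NTS difference of AABR07052523.1 in SHRs was 0.16 and did not pass. A number term could not be fitted with the rat block, DESeq2 was not run for the 5 ages, and no annotated neighbour was in the tables. Depth limits AABR07000733.1 in SHRs and AABR07064061.1 in WKY rats, whose means were under 10 counts. With a tolerance of 0.05, values were not whole in 93.5% of libraries for AABR07052523.1, 73.9% for LOC103692716 and 91.3% for Eno1, against 99.3%, 81.9% and 100% at 0.005.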
